A study of Homo sapiens with 5 samples.

Results

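The genes described here encode the proteins of the cytosolic ribosome. They were taken from the GENCODE v44lift37 annotation of the human genome (GRCh37/hg19) as the protein-coding genes whose symbol is RPL or RPS followed by a number, with an optional A, X or L suffix, together with RPLP0, RPLP1, RPLP2 and RPSA. The Y-linked copies were left out. The rule gave 85 genes of 20162 protein-coding genes, 53 of the large subunit and 32 of the small subunit, spread over 21 chromosomes.

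Cytosolic ribosomal proteins assemble with ribosomal RNA into the large and the small subunit. Their genes sit behind CpG-rich promoters and are among the most highly transcribed genes of a growing cell. Their transcripts usually start at a cytosine inside a run of pyrimidines, the terminal oligopyrimidine (TOP) motif, which couples their translation to growth signalling through mTOR and LARP1. Many of their introns host small nucleolar RNAs (snoRNAs), and the genome holds very many processed pseudogenes of these genes. PHF8 is a histone demethylase whose PHD finger reads H3K4 trimethylation, a mark of active promoters.

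The series measured where PHF8 sits on chromatin in the human melanoma line SKMEL-147 by chromatin immunoprecipitation and sequencing (ChIP-seq) with an antibody to PHF8. It has 3 PHF8 libraries, called A, B1 and B2, and 2 input libraries, 1 for A and 1 for B, for which no peak list was analysed here. The series compared no conditions, so occupancy is described against the other protein-coding genes in the same libraries. The labels do not say whether the 3 libraries came from separate cultures, and the spread between them may be technical. The peak lists held 21506 peaks for A, 20882 for B1 and 20120 for B2, with median fold enrichments of 18.9, 11.8 and 11.8 and median summit depths of 54, 39 and 40 fragments.

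Most canonical transcripts of these genes start within the pyrimidine run of the TOP motif. The sequences below span the 15 bases before the annotated start of the canonical transcript and the 15 from it onward, on the gene's own strand, with the run that overlaps the start in capitals. They show members whose strongest PHF8 peak was high or low, then RPL10L, which had none. The strongest RPL6 peak lay at another annotated start, 9093 to 9103 bp upstream of the start shown. At the RPL6 start shown fold enrichments were 31.9, 11.3 and 9.95 in A, B1 and B2.
RPL35 (chr9:127624222-127624251, minus strand): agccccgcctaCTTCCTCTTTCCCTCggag
RPL6 (chr12:112847395-112847424, minus strand): gccgggaccttaaTTCTCTTTCCCatcttg
RPSA (chr3:39448196-39448225, plus strand): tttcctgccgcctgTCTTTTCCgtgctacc
RPS15 (chr19:1438380-1438409, plus strand): tgcgcaggcgcggaCCaaagcgatctcttc
RPL29 (chr3:52029897-52029926, minus strand): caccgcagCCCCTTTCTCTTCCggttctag
RPS25 (chr11:118889039-118889068, minus strand): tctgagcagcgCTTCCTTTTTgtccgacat
RPL39 (chrX:118925579-118925608, minus strand): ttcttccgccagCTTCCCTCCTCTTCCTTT
RPL10L (chr14:47120970-47120999, minus strand): caggcgtagTTaagagagcgcattttgact

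A run of 6 or more pyrimidines at the start was present in 68 of the 85 genes (80%) and in 21.2% of 19796 other protein-coding genes. The median run was 11 bases long against 3 bases in the other genes, and the first transcribed base was C in 64 of 85 members (75.3%) against 10.4% elsewhere. Among the sequences shown the run was 15 bases long in RPL35, 10 in RPS25, 14 in RPL29 and only 2 in RPS15. RPL39 had a run of 22 bases, part of which lies past the 30 bases printed.

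PHF8 occupied nearly all of these promoters. A peak overlapped the region within 1 kb of an annotated transcription start site (TSS) in all 3 replicates at 82 of the 85 genes (96.5%, 95% Wilson interval 90.1% to 98.8%), while 60.2% of all protein-coding genes had such a peak. Intervals of this kind cover counting error only. The same 82 genes had a peak in each single library, where the share of all protein-coding genes was 62.4%, 61.2% and 60.8%. Sequence composition moved with this count. A CpG-island-like sequence, with GC of at least 50% and CpG at no less than 0.6 of the number expected from base content, within 250 bp of the canonical start, was found at 82 of 85 members and at 67.6% of the other genes. Among members with such a sequence 80 of 82 had a peak in every replicate, beside 81.2% of all protein-coding genes with one. The part of base composition in the count was not tested.

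Raising the required fold enrichment, the number of fragments at the summit over the number expected from the input or the surroundings, thinned the list. A fold enrichment above 10 in all 3 replicates was met by 81 members and by 49.6% of all protein-coding genes. Above 15 there were 73 members beside 36.8%, above 20 there were 51 members (60%) beside 23.8%, and above 30 there were 11 members (12.9%) beside 5.41%. RPS25 was the bound gene that fell below 10.

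Among the 3 genes without a peak were RPL10L and RPL3L, both paralogues of other members. RPL10L is an intronless retrogene used in the male germ line and RPL3L a copy of RPL3 made in striated muscle. RPL10L lay 1023711, 1024186 and 1024196 bp from the nearest summit in A, B1 and B2, in each case a summit closest to a start of MDGA2. The nearest summits to RPL3L were 2073, 2077 and 1606 bp away in A, B1 and B2. In A and B1 they lay 121 and 125 bp from a start of its opposite-strand neighbour NDUFB10, with fold enrichments of 48.3 and 31.4. In B2 the nearest summit was at another position, 326 bp from NDUFB10, with a fold enrichment of 5.59. RPL3L was also poor in CpG, with an observed over expected ratio of 0.195, whereas RPL10L had a CpG-island-like sequence with a ratio of 0.816.

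**Figure D1:**
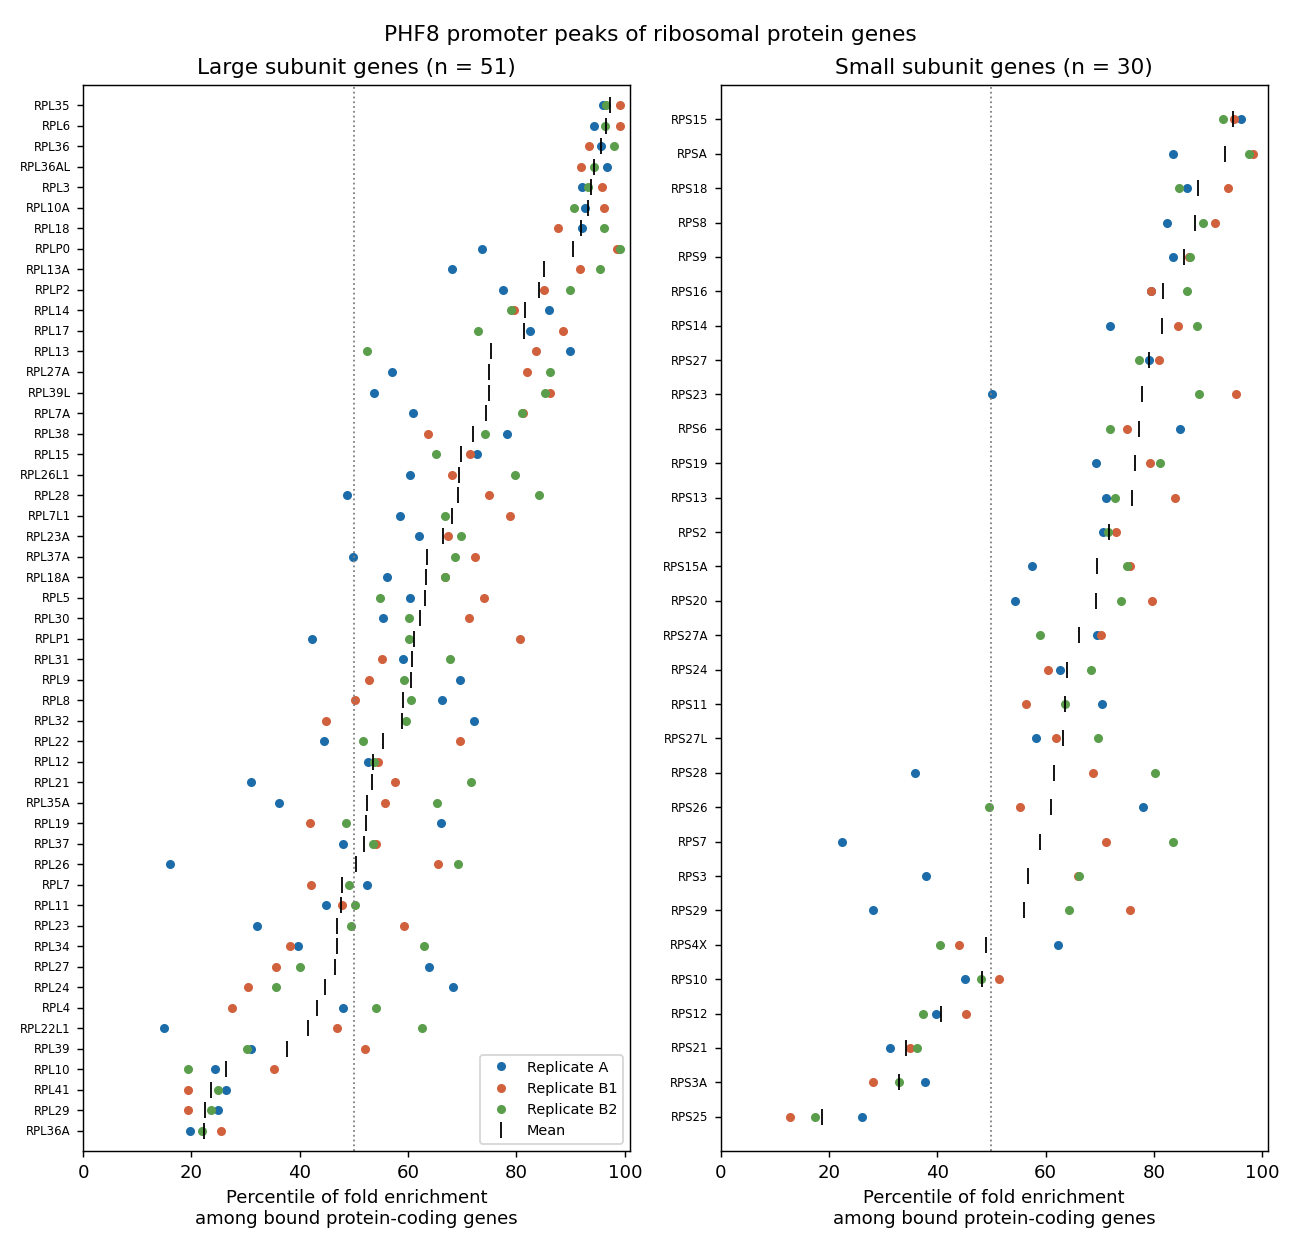
Percentile of fold enrichment of the strongest promoter peak among 12139 bound protein-coding genes, on the horizontal axis, for the 51 bound large-subunit genes (left) and 30 of the 31 bound small-subunit genes (right). Coloured points are the 3 replicates, the black mark is their mean and the dotted line is at 50. RPL35 stands at the top of the left panel with a mean of 97.2 and RPS25 at the foot of the right panel with a mean of 18.8, while RPS7, RPL26 and RPL22L1 have A far to the left of B1 and B2.

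To set libraries with different scales side by side, each gene's strongest promoter peak was given its rank within that library among the 12139 protein-coding genes with a peak in all 3. The bound members had median percentiles of 60.6, 69.9 and 68.1 in the 3 libraries, a mean of 66.2 ± 4.91 (SD, n = 3 replicates), against 49.9 for the other bound genes. Their median fold enrichment was 37.5, 24.3 and 22.7 in A, B1 and B2, against 33.3, 19.3 and 18.3 for the other 12057 genes. Their median summit depth was 109, 79.5 and 80 fragments against 97, 64 and 63. The members were thus shifted upward as a group in every library but were not confined to the strongest targets. In the top 10% of bound genes in all 3 replicates stood 7 of 82 members (8.54%) beside 4.8% of all bound genes. In the upper 50% in all 3 stood 47 (57.3%) beside 38.6%, and in the lower 50% in all 3 stood 8 (9.76%) beside 39.1%. No bound member had fewer than 52 fragments at its summit in A or fewer than 33 in B1 and B2. The weakest of the other 12057 genes had 9, 9 and 10. A larger set tends to reach a lower minimum, so these values are not a like comparison. Membership itself was not tested against chance, since the gene list was drawn up with results of these libraries known.

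The highest mean percentile was that of RPL35 (ENSG00000136942, chr9:127620159-127624260), whose protein lies near the exit of the nascent-chain tunnel. Fold enrichments at this gene were 59.3, 43.2 and 35.8 in the order A, B1, B2, from 182, 136 and 117 fragments, with an exact Poisson interval of 157 to 210 for the first. Its percentiles were 96.1, 99.0 and 96.6. The peak in A covered chr9:127623730-127624950 and took in the start of ARPC5L on the other strand, whose start was 296 bp from the summit. It was not the highest member by fold enrichment in any single library, where RPL36AL led in A with 60.0, RPL6 in B1 with 43.2 and RPLP0 in B2 with 42.4. The summits of RPL35 lay 123 to 136 bp inside the gene, in its first intron, and not at ARPC5L.

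Next in order came RPL6, RPL36, RPS15, RPL36AL, RPL3, RPL10A and RPSA, with mean percentiles of 96.6, 95.6, 94.5, 94.3, 93.7, 93.2 and 93.1. The SDs over replicates were 2.36, 2.37, 1.60, 2.39, 1.81, 2.82 and 8.34, and several neighbours in this order changed places between libraries. RPL35 and RPL6 stood above RPL3 in all 3. RPL36 had fold enrichments of 58.4, 34.1 and 38.1. RPS15 had 59.2, 35.3 and 32.4, and RPL3, a protein at the peptidyl transferase centre, had 54.5, 36.5 and 32.8. RPL10A had 55.1, 37.1 and 30.8. RPSA, also known as the laminin receptor precursor, had 48.1, 41.1 and 36.8. The lowest single percentile among RPL36, RPS15, RPL3, RPL10A and RPSA was 83.5, for RPSA in A.

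The rank of RPL6 rested on a distant start. Its strongest peak, with fold enrichments of 57.0, 43.2 and 35.6, lay 9093, 9094 and 9103 bp upstream of the canonical start, by another annotated RPL6 start that faces PTPN11 at 199 to 209 bp. At its canonical start the peak had fold enrichments of 31.9, 11.3 and 9.95 and a mean percentile of 26.5 ± 17.2 (SD, n = 3) when each gene was scored at its canonical start only. RPL6 was therefore among the strongest or the weakest members according to the start used.

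The lowest 8 bound members were RPS25, RPL36A, RPL29, RPL41, RPL10, RPS3A, RPS21 and RPL39. RPS25 (ENSG00000118181, chr11:118886422-118889401), a small-subunit protein used by several viral internal ribosome entry sites, had fold enrichments of 23.8, 9.57 and 10.6. Its summits held 60, 33 and 38 fragments, with an exact Poisson interval of 22.7 to 46.3 for B1, and its mean percentile was 18.8 ± 6.77 (SD, n = 3). It was low in every library.

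Low fold enrichment came with few fragments at some of these genes and with a raised background at others. RPL29 had 100, 71 and 76 fragments, at percentiles 52.7, 59.2 and 65.6 of all bound genes, yet its fold enrichment of 23.2, 11.8 and 12.2 stood at percentiles 24.9, 19.3 and 23.5. The expected background at its summit was 3.35, 5.11 and 5.33 fragments, against a genome-wide value of 1.57, 1.93 and 2.04. RPS21 was similar, with fragment percentiles of 48.3, 55.3 and 56.0 and fold-enrichment percentiles of 31.2, 35.0 and 36.3. RPL36A, RPL10 and RPS3A had the genome-wide background in all 3 libraries and few fragments, at 52, 38 and 35 for RPL36A, 58, 45 and 33 for RPL10, and 72, 40 and 43 for RPS3A. RPL41, which encodes the smallest ribosomal protein, had 62, 51 and 56 fragments over a background of 1.64, 3.40 and 3.55. The cause of the raised background was not tested.

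By subunit, 51 of 53 large-subunit and 31 of 32 small-subunit genes were bound. The bound large-subunit genes had median percentiles of 59.1, 67.4 and 65.3 in A, B1 and B2, with a mean of 63.9 ± 4.32 (SD, n = 3). The bound small-subunit genes had 69.3, 72.9 and 71.9, with a mean of 71.4 ± 1.89. The difference of the medians, large minus small, was -7.46 ± 2.43 and had the same sign in each library, but genes of both subunits ran over nearly the whole range, from 22.4 to 97.2 for large-subunit means and from 18.8 to 94.5 for small-subunit means. The difference was -1.06 ± 6.41 among the 33 bound genes with no opposite-strand start within 2 kb, smaller than its spread.

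The 3 genes of the P stalk, the flexible arm that recruits the translation factors, were all bound. RPLP0 had fold enrichments of 43.0, 41.6 and 42.4, RPLP1 had 30.2, 27.6 and 20.7, and RPLP2 had 44.9, 29.6 and 30.3. Their mean percentiles were 90.4 ± 14.5, 61.0 ± 19.2 and 84.2 ± 6.28 (SD, n = 3). By strongest peak, RPLP0 and RPLP2 thus did not differ beyond their spread and RPLP1 was lower in every library. The strongest RPLP2 summit, however, was nearer to a start of PIDD1 than to its own start in all 3 libraries. At the RPLP2 summits nearest to its own start, 113 and 87 bp away in B1 and B2, fold enrichments were 21.1 and 17.2. These were below the RPLP1 values in B1 and B2.

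**Figure D2:**
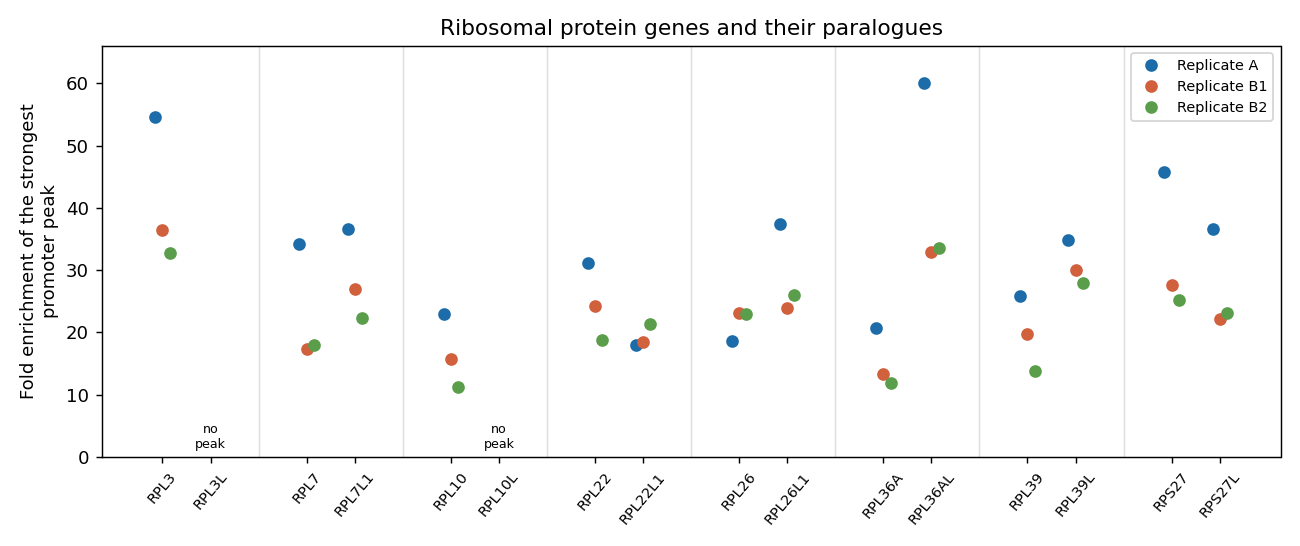
Fold enrichment of the strongest promoter peak, on the vertical axis from 0, for 8 ribosomal protein genes and the paralogue each resembles, with 1 point for each of the 3 replicates. RPL3L and RPL10L had no peak, RPL36AL lay above RPL36A in all 3 replicates, and RPL39L lay above RPL39 in all 3. The RPL36AL summit was nearer to a start of MGAT2 than to its own start.

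Of 8 pairs of a ribosomal protein gene and its paralogue, both genes were bound in 6, and within some pairs the levels lay far apart. RPL36AL, a retrogene that encodes nearly the same protein as RPL36A, had fold enrichments of 60.0, 32.9 and 33.6 against 20.7, 13.3 and 11.8 at RPL36A. The RPL36AL summit, however, lay 107 to 112 bp from a start of MGAT2 and 280 to 285 bp from its own start. RPL39L, best known from male germ cells and tumours, had 34.8, 30.0 and 28.0 against 25.9, 19.8 and 13.8 at RPL39. In these pairs the paralogue was higher in each library. Both RPL36A and RPL39 are X-linked while their paralogues are autosomal.

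RPL7L1, a factor of large-subunit maturation, had 36.6, 26.9 and 22.3 against 34.3, 17.3 and 18.1 at RPL7. RPL26L1 had 37.4, 23.9 and 26.0 against 18.6, 23.2 and 23.0 at RPL26. RPS27L, a p53-responsive copy of RPS27, had 36.6, 22.2 and 23.2 against 45.8, 27.7 and 25.3 at RPS27 and was the lower of its pair in each library. RPL22L1 had 17.9, 18.5 and 21.3 against 31.2, 24.2 and 18.7 at RPL22, an order that changed in B2. RPL3 and RPL10 were bound while RPL3L and RPL10L were not. The paralogues as a set had a mean of median percentiles of 68.8 ± 9.14 (6 bound genes) and the genes they resemble 49.0 ± 10.6 (8 bound genes). These sets are not matched, since RPL3 and RPL10 count while their unbound paralogues do not. RPL10, RPL36A and RPL39 are X-linked and no paralogue is, and the RPL36AL summit lay nearer to a start of MGAT2. The run of pyrimidines at the start was shorter than 6 bases in 6 of the 8 paralogues, and RPL36AL and RPL22L1 were the exceptions. The sequences of 4 bound paralogues and of RPL36A, laid out as above, show this.
RPL36AL (chr14:50087330-50087359, minus strand): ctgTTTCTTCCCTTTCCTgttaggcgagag
RPL36A (chrX:100645984-100646013, plus strand): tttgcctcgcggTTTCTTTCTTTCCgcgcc
RPL39L (chr3:186857270-186857299, minus strand): gcatccggggaaatcgcggTCTTagcatcc
RPS27L (chr15:63449662-63449691, minus strand): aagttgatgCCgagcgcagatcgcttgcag
RPL7L1 (chr6:42847339-42847368, plus strand): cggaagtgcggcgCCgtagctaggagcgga

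RPL5 and RPL11, which bind MDM2 as part of the 5S particle, had fold enrichments of 37.4, 25.6 and 19.4 and of 31.2, 18.8 and 18.4, with mean percentiles of 63.1 ± 9.90 and 47.6 ± 2.72 (SD, n = 3). RPS19, the gene most often mutated in Diamond-Blackfan anaemia, had 41.2, 27.1 and 26.3 and a mean percentile of 76.5 ± 6.35. Of 15 genes tied to that anaemia 14 were bound, with median percentiles of 52.7, 67.1 and 65.2 against 61.4, 70.7 and 69.1 for the 68 other bound members. They were lower in each library, with means of 61.7 ± 7.81 and 67.1 ± 4.97, and this difference was not tested.

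Chromosome moved with the level. The 4 X-linked members, RPL10, RPL36A, RPL39 and RPS4X, had fold enrichments of 23.0, 15.7 and 11.2, of 20.7, 13.3 and 11.8, of 25.9, 19.8 and 13.8, and of 38.2, 17.7 and 16.1 in A, B1 and B2. Their mean of median percentiles was 31.1 ± 7.41 and that of the 78 bound autosomal members was 67.2 ± 5.10. Other bound genes showed the same split, with 20.6 for 405 X-linked and 51.2 for 11652 autosomal genes, so low X-linked values were not limited to ribosomal protein genes. The 12 members on chromosome 19 had 79.8 ± 5.12 against 52.0 ± 0.980 for 893 other bound genes there. Copy number of these chromosomes in SKMEL-147 was not analysed here.

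The 29 bound members that carry snoRNA genes inside them, 60 snoRNA genes in all, had a mean of median percentiles of 64.9 ± 7.24, and the 53 without had 66.9 ± 3.69. The 67 bound members with a pyrimidine run of 6 or more had 66.2 ± 6.29 and the 15 with a shorter run 65.5 ± 2.78. Both differences changed sign between replicates and were smaller than the SDs. Among the other bound genes a run of 6 or more went with 43.9 and a shorter one with 51.4.

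**Figure D3:**
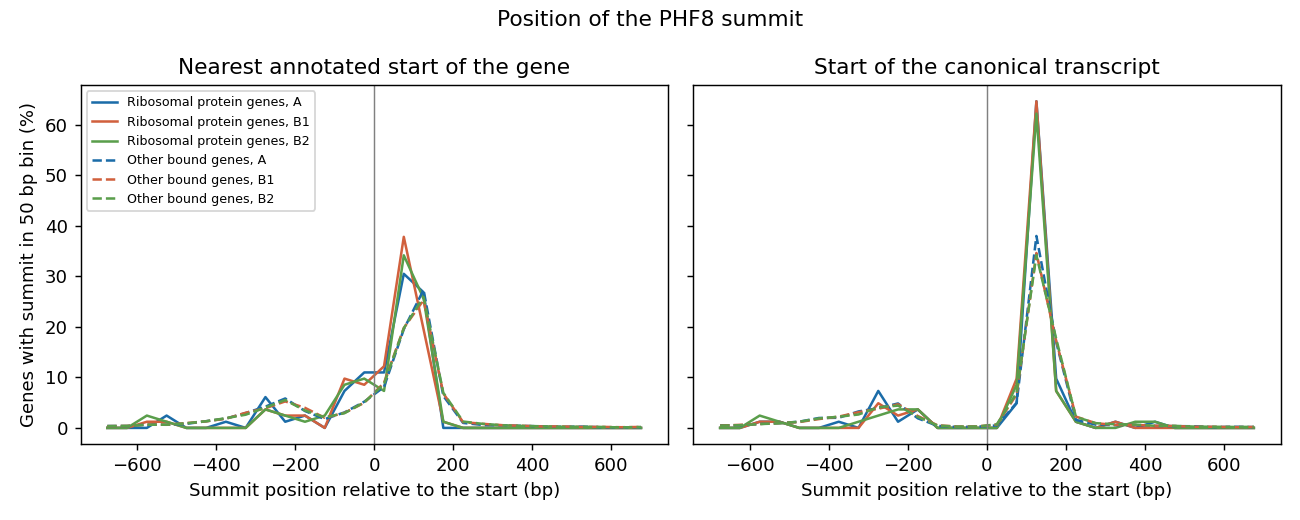
Share of genes, on the vertical axis, whose strongest summit fell in each 50 bp bin relative to the nearest annotated start (left) or to the start of the canonical transcript (right), for 82 ribosomal protein genes (solid lines) and 12057 other bound genes (dashed lines) in each replicate. Both sets peak downstream of the start, and measured from the canonical start 62.2% to 64.6% of the ribosomal protein genes fall between 100 and 150 bp downstream, against 34.2% to 38.0% of the others.

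PHF8 summits lay just inside the genes. Relative to the nearest annotated start of the same gene, the median summit was 65, 68.5 and 75.5 bp downstream in A, B1 and B2 (mean 69.7 ± 5.35, SD, n = 3), against 77, 73 and 75 bp for the other bound genes. The summit was downstream at 56, 58 and 56 of the 82 members (68.3%, 70.7% and 68.3%), against 66.1%, 66.3% and 66.7% elsewhere, and the members' Wilson intervals, the lowest from 57.6% to 77.4%, covered these values. From the nearest start, a difference in the share of downstream summits was thus not detectable with this number of genes. Ribosomal protein genes have a median of 8 annotated starts each, up to 22, many close together, which bears on any distance to the nearest.

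From the canonical start the summits were more tightly placed. The median was 121, 123 and 122 bp downstream, close to the 124, 122 and 122 bp of the other bound genes. Of the summits within 1 kb of that start, 84.0%, 86.2% and 84.8% were downstream at the members (mean 85.0% ± 1.16) against 73.3%, 72.9% and 73.8% elsewhere (mean 73.3% ± 0.406), higher in each library. The summits also lay closer together, with 53, 53 and 51 of the 82 members between 100 and 150 bp downstream (mean 63.8% ± 1.41) against 35.6% ± 2.08 of the other bound genes. Summits more than 200 bp upstream of the nearest start were found at 9, 7 and 8 members (mean 9.76%) against 20.2% of the others. The replicates placed the summit of the same member within 50 bp of each other at 63 of 82 genes (76.8%) against 67.0% of the others. The summit was downstream of the nearest start in all 3 libraries at 45 members (54.9%), upstream in all 3 at 16 (19.5%) and on different sides in 21 (25.6%), near the 55.0%, 23.4% and 21.7% of the other bound genes.

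**Figure D4:**
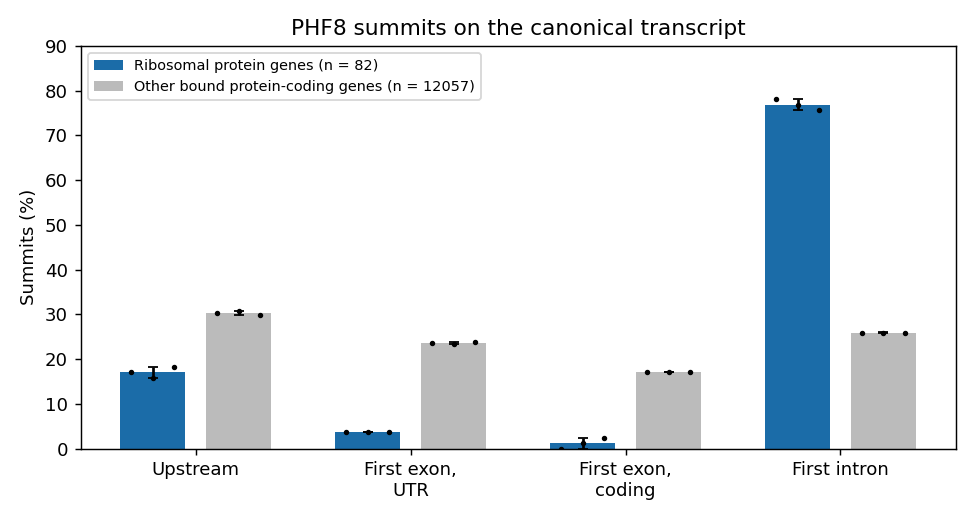
Share of strongest summits, on the vertical axis from 0, by where they fell on the canonical transcript, for 82 ribosomal protein genes (blue) and 12057 other bound protein-coding genes (grey). Bars are means and error bars SDs over 3 replicates, shown as points. The first intron holds 76.8% of the ribosomal protein gene summits and 25.9% of the others.

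The first exon of these genes is very short, with a median of 42 bp against 185 bp in other protein-coding genes. The summit was in the first intron of the canonical transcript at 64, 63 and 62 of the 82 members (mean 76.8% ± 1.22) against 25.9% ± 0.0696 of the other bound genes, and in all 3 replicates at 55 members (67.1%) against 19.2%. It was in the untranslated part of the first exon at 3 members in each library (3.66%) against 23.7%, in coding sequence of the first exon at 0, 1 and 2 members against 17.1%, and upstream at 14, 13 and 15 (17.1%) against 30.4%. Among genes with a first exon of at most 100 bp the share in the first intron was 81.9% ± 1.39 for 72 members and 63.2% ± 0.355 for 2690 other bound genes. First-exon length thus moved with this contrast, which was smaller but present among genes with short first exons. Its part in where summits were called was not tested.

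The sequences under some of these intronic summits are given over 61 bases centred on the B1 summit, on the gene's strand, with CpG dinucleotides in capitals, to show how CpG number varies under strong and weak peaks.
RPL35 (chr9:127624070-127624130, minus strand): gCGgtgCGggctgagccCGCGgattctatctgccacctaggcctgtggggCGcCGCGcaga
RPL10A (chr6:35436242-35436302, plus strand): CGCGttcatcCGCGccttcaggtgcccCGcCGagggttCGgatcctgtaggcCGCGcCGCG
RPSA (chr3:39448293-39448353, plus strand): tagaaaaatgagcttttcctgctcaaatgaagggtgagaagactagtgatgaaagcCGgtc
RPL29 (chr3:52029755-52029815, minus strand): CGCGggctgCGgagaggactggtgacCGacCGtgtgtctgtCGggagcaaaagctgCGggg
RPS25 (chr11:118888910-118888970, minus strand): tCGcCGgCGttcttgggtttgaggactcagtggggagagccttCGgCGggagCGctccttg

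RPL35 has 7 CpG in its window and RPL10A has 11, while RPSA, with a mean percentile of 93.1, has 1. The weakly bound RPL29 and RPS25 have 7 and 6. These 5 windows are examples and were not chosen at random.

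The 5 members with summits farthest from their own start were RPLP2, RPS18, RPL36AL, RPS6 and RPL4. At RPLP2 the summit lay 550, 553 and 553 bp upstream, 45 to 48 bp from a start of PIDD1 on the opposite strand. At RPS18 it lay 537, 514 and 527 bp upstream, at 216 to 239 bp from VPS52. At RPL36AL it lay 280, 281 and 285 bp upstream and 107 to 112 bp from MGAT2. For these genes the strongest peak was nearer to a neighbour's start than to their own. RPS6, the ribosomal S6 kinase substrate, had its summit 267, 244 and 255 bp upstream, and RPL4 had it 76 and 95 bp downstream in A and B1 but 577 bp upstream in B2. In all, 51 of the 85 members had an opposite-strand start of another gene within 2 kb, 27 of them that of a coding gene. Among bound genes it was 49 of 82 members and 6547 of 12057 others. The summit in A was nearer to another coding gene's start at 5 bound members, and at 3 this held in every replicate. A peak that spans 2 starts counts for both genes.

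Peaks at these genes were of ordinary width. The median width was 862, 716.5 and 651 bp in A, B1 and B2 against 824, 721 and 674 bp at the other bound genes, and 2 or more separate peaks were found near the starts of 39, 43 and 43 members (mean 50.8%) against 47.1%. Among the widest 5 were RPL12, RPL36AL, RPL7A and RPL6. RPL12 had widths of 1744, 1578 and 1720 bp and RPL36AL 1356, 1085 and 1494 bp. Width and height did not go together at RPL12, whose mean percentile of fold enrichment was 53.5 ± 0.910 (SD, n = 3).

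**Figure D5:**
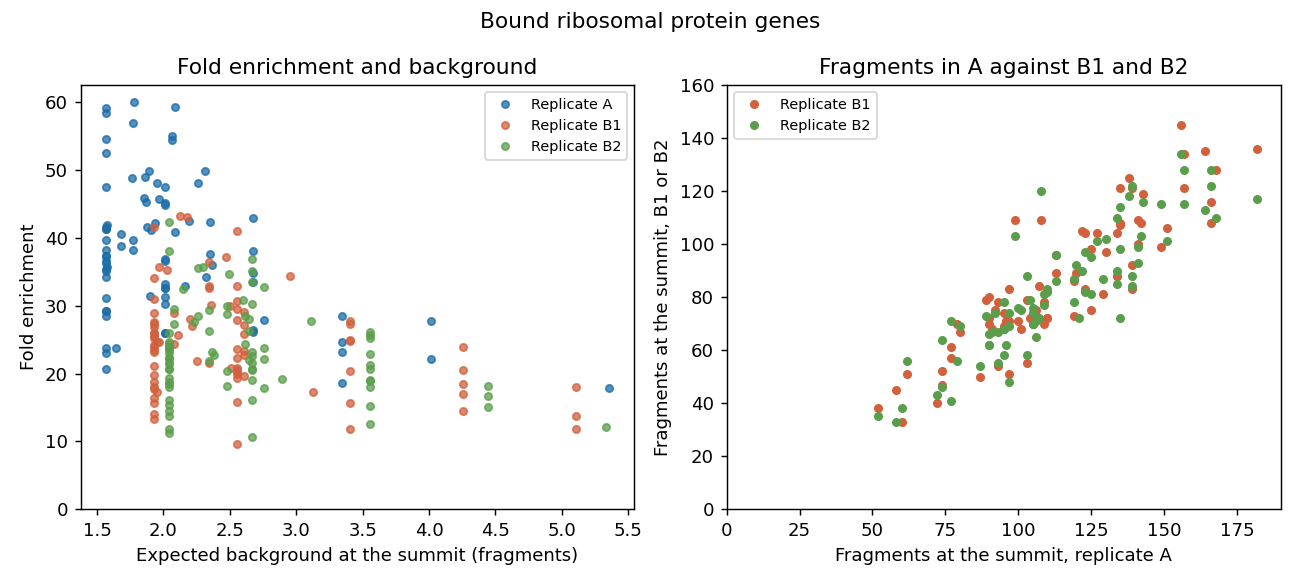
Left, fold enrichment against the expected background at the summit, in fragments, for 82 members in each replicate. Right, fragments at the summit in B1 and B2 (vertical axis) against A (horizontal axis). Members with an expected background above 3 reach a fold enrichment of at most 28.5 in A and 27.7 in B1 and B2, and fragment numbers rise together across libraries. Fold enrichment has the expected background in its denominator, so the axes of the left panel are not independent.

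Replicates agreed better on fragments than on fold enrichment. Across the 82 members Spearman's rho of fold enrichment was 0.630 between A and B1, 0.582 between A and B2 and 0.889 between B1 and B2, and of fragments 0.874, 0.880 and 0.895. The points share library depth and sequence content, and genes are not replicates. For the other bound genes the rho of fold enrichment was 0.840, 0.843 and 0.934. The labels give B1, B2 and 1 input the letter B, and A its own input. If B1 and B2 were both scored against that input, their fold enrichments share background reads and are not independent. The part of this in their closer agreement was not tested.

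The 5 members whose percentile varied most between replicates were RPS7, RPL26, RPL22L1, RPS29 and RPS23. RPS7 had fold enrichments of 22.1, 24.6 and 27.3, at percentiles 22.4, 71.1 and 83.6, from 110, 72 and 83 fragments. The expected background at its summit was 4.02 fragments in A but 1.97 and 2.08 in B1 and B2. RPL26 had 80, 67 and 69 fragments over a background of 3.35, 1.93 and 2.04. RPL22L1 had 113, 96 and 96 over 5.36, 4.25 and 3.55, and RPS23 had 122, 105 and 90 over 2.68, 1.97 and 2.08. In each, A was low in percentile and high in background, and its fragments were no fewer than in B1 or B2. RPS29 had a background of 3.35, 1.93 and 2.04, but its strongest peak in B1 and B2 was at a distant annotated start. At its canonical start fold enrichment was 24.6, 16.8 and 19.5. The background at the summit was over 2 times the genome-wide value at 7, 8 and 4 members (mean 7.72% ± 2.54) against 4.98% ± 0.605 of the other bound genes.

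Promoters were searched for letter motifs from 250 bp upstream to 50 bp downstream of the canonical start, on both strands except for the last, read on the gene's strand alone. CCGGAAG, the core recognised by ETS factors such as GABPA, was found in 30 of 85 members (35.3%) and in 14.0% of the other protein-coding genes. AAGATGGCG, a YY1-type motif, was found in 9 (10.6%) against 2.81%, and CTCGCGAG in 7 (8.24%) against 1.43%. CTCTTTCC, which overlaps the pyrimidine run at many starts, was found in 14 (16.5%) against 1.53%. The GC box GGGCGG stood in 51 (60%) against 61.4%, CCAAT in 28 (32.9%) against 36.0% and TATAAA in 8 (9.41%) against 9.62%. Among the other bound genes alone the shares were 20.8% for CCGGAAG, 4.46% for AAGATGGCG, 2.16% for CTCGCGAG, 1.42% for CTCTTTCC, 75.9% for GGGCGG, 36.8% for CCAAT and 4.60% for TATAAA. The 30 members with CCGGAAG had a mean of median percentiles of 60.7 ± 3.59 and the 52 bound members without it 68.5 ± 5.46, whereas among other bound genes the order was the opposite, at 58.0 ± 0.779 with it and 47.2 ± 0.141 without. A match describes letters and not a bound factor.

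A set of 18 other genes, most of them of translation or known for a TOP start, is called the other translation genes here. A run of 6 or more pyrimidines was present in 15. All 18 had a peak in all 3 replicates, beside 60.2% of all protein-coding genes and 81.2% of those with a CpG-island-like promoter. The median percentile of the 18 was 51.1, 48.4 and 50.3, a mean of 49.9 ± 1.39 (SD, n = 3) against 66.2 ± 4.91 for the ribosomal protein genes. Ribosomal proteins fused to ubiquitin or a ubiquitin-like protein come from RPS27A and FAU, among others. RPS27A had fold enrichments of 41.3, 24.3 and 20.4 and FAU, which encodes RPS30, had 53.0, 31.8 and 29.9. Their mean percentiles were 66.2 ± 6.30 and 89.9 ± 0.690, FAU being the highest of the 18. The FAU summits stood at -266, -273 and -275 bp from its nearest start, upstream in each library. Their distance to starts of other genes was not examined. VIM and EIF3F were the lowest, at 10.1 ± 0.850 and 15.1 ± 9.02.

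The processed pseudogenes of ribosomal protein genes were almost all without a peak. Of 1521 annotated in the genome, 7 (0.46%) had a peak within 1 kb of their start in all 3 replicates, and at 5 of these the peak in A was also within 1 kb of a start of another gene. No peak was thus called at nearly all of these copies. Reads from near-identical copies may be split or lost, and the share among other pseudogenes was not computed. What the low count means for the peaks at the parent genes was not tested.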

How the data were processed

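PHF8 ChIP-seq of SKMEL-147 cells was analysed from 3 deposited MACS narrowPeak lists (replicates A, B1 and B2). Per the methods, the authors aligned reads to hg19 (Bowtie2, default settings) and ran MACS on each replicate alone against input, keeping fold enrichment over 1.5. The submitters' notes also name Picard and bcl2fastq. Versions, read totals and the handling of reads with several placements are not given in the sources used here. The deposited signal column is a fold ratio, (n + 1)/(b + 1), and the authors' −log10 p-value and −log10 q-value columns follow from n fragments and an expected b. The deposited score column, a rescaled −log10 value, was not used. All peaks passed the stated q of 0.05. From fold and −log10 p the whole number n was recovered for 100% of peaks in each list, within 0.001.

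A gene was bound when a peak overlapped 1 kb on either side of any annotated TSS in all 3 replicates, and its strongest such peak by fold enrichment was used. Ranks were taken over all bound protein-coding genes, not over the list alone. Sequence features used the canonical start and GRCh37. The most common expected background of a library is called genome-wide. Genes named are those without a peak, the 8 highest and 8 lowest by mean percentile, the 5 widest, the 5 farthest from the TSS, the 5 most variable between replicates, X-linked and P stalk genes, RPL5, RPL11, RPS19, RPSA, RPS27A, FAU and the paralogues with the genes they resemble. Other genes are named where a statement turned on them, and a few genes that meet the rule are not reported here. Members, gene lists and motifs were chosen with earlier results of these data known, so no test was run over them and differences are set against the SD over 3 replicates. Scripts ran in Python 3.11.15 with numpy 2.4.6, pandas 2.3.3 and SciPy 1.17.1 and were tested on simulated peaks.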

Additional observations from a re-analysis of the deposited data

How the results depend on the processing

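The number of bound members, their median percentile, summit position, downstream share, width, the subunit difference, the pyrimidine runs and the other translation genes were recomputed under other settings. Only the summit position and the subunit difference could change sign, and neither did. The bound members numbered 82 at a q-value below 0.001, at a fold enrichment above 4, within 500 bp, with the summit inside the window and in at least 2 replicates, 83 within 2 kb, 78 when the gene record's 5′ end was the TSS, and 51 above a fold enrichment of 20, where the other translation genes fell to 4 of 18. The median percentile was 59.3 above a fold enrichment of 10. Scoring 1 TSS per gene moved the downstream share to 88.6% and the median position to 150.8 bp at the gene's 5′ end, and to 85.3% and 122.7 bp at the canonical start. Without the paralogues the downstream share was 72.4%. Without genes that have an opposite-strand neighbour, 33 of 34 were bound, the downstream share was 66.7%, the position 63 bp, the width 616.3 bp and the subunit difference -1.06. Fewer members enter by construction when genes are left out. The gene record's 5′ end is the outermost start, so distances measured from it are longer by definition. A fold-enrichment cutoff takes low-ranked genes out of the ranking, which by itself lowers the percentile of those that stay. The cause of the other shifts was not tested. Leaving out 1 replicate at a time left 82 members and 18 other translation genes bound, a median percentile of 64.6 to 69.0, a subunit difference of -8.36 to -6.08, a position of 66.75 to 72 bp, a downstream share of 68.3% to 69.5% and a width of 683.75 to 789.25 bp. The pyrimidine run was measured at the canonical start. At the gene's 5′ end, an alternative chosen after seeing the data, 41 of 85 members had a run of 6 or more. No paired analysis was possible because there is 1 ChIP group and no peak list of the inputs was analysed. Summit depths of 8 to 10 fragments were the lowest called, so weaker occupancy at RPL10L or RPL3L is not detectable.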
